A study of Mus musculus with 96 samples.

Results

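The nuclei described here are the 12 nuclei of the 4N gate, set against the 47 single nuclei of the 2N gate. They were chosen by the gate named in each library's title, and they are 12 of 96 libraries in all. The others not compared in full are 35 nuclei of a 2N+ gate and 2 bulk libraries, for the 2N and 2N+ gates. All come from KPC1199EGFP, a mouse pancreatic cancer cell line on a C57BL/6 background with an EGFP reporter, which was grown as adherent cells, left untreated and taken at passage 9. Nuclei were released in a buffer with DAPI, a dye that binds DNA, and sorted on DNA content, and the labels give the gates the same line, passage and preparation. The library index in the titles runs from 85 to 96 in the 4N gate, from 49 to 83 in the 2N+ nuclei and from 1 to 48 in the 2N gate, so index block and gate cannot be told apart. The DNA of each nucleus was amplified with the SeqXE kit and sequenced across the whole genome. Since 1 culture gave all nuclei, a gate counts as 1 sample and no p-value was computed. SDs describe the spread of nuclei. Intervals are exact (Clopper-Pearson, 95%) and cover only the error of counting nuclei.

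A cell in G1 has not yet copied its chromosomes, and a cell in G2 has copied all of them before dividing. A G2 nucleus therefore has more DNA with the same ratios between chromosomes as its G1 karyotype. A cell whose genome was doubled and then gained or lost single chromosomes can hold ratios that lie between the whole steps of the karyotype it came from. Aneuploidy, an uneven chromosome set, is common in pancreatic cancer, in which losses that include Cdkn2a, Trp53 and Smad4 and gains that include Myc are known. In the mouse these genes lie on chromosomes 4, 11, 18 and 15, and they are named here only to place the chromosomes, since no gene was measured.

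The authors deposited 1 segmented copy ratio per bin, over 4906 bins of which 4636 are autosomal. Read depth is unknown. All libraries differed from each other in their values. Every value below is a state, which is 2 times the ratio to the median of chromosome 4 in the same nucleus, and equals copies if chromosome 4 is at 2. A genome doubled as a whole has unchanged states, so states cannot tell a G2 nucleus from a G1 nucleus of the same karyotype. Chromosomes 7, 9, 10 and 13 together, which do not set the scale, had a median state of 2.02 over 4N nuclei (lowest 1.95, highest 2.07) and of 2.01 over 2N nuclei (lowest 1.97, highest 2.18). The scale was thus alike in both gates. The mean autosomal state had a median of 2.46 over 4N nuclei (SD 0.0956) and of 2.45 over 2N nuclei (SD 0.115).

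The question was first which 4N nuclei carry the chromosome ratios of a nucleus in the 2N gate. A nucleus was said to match when all 18 autosomes other than chromosome 4 lay within 0.25 of the state in 1 other nucleus. Of the 4N nuclei, 3 of 12 matched a 2N nucleus (25%, interval 5.49 to 57.2%), while 27 of 47 2N nuclei matched another 2N nucleus (57.4%, interval 42.2 to 71.7%). The intervals overlap.

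The matching 4N nuclei were 6, 9 and 10. Nucleus 6 matched 7 nuclei of the 2N gate, and its largest difference to the nearest, 2N nucleus 38, was 0.0897, on chromosome 16. It had chromosome 1 at 2.93 and chromosome 18 at 2.94, with chromosome 15 at 2.00. Nucleus 10 matched 9 nuclei, and its largest difference to the nearest, 2N nucleus 1, was 0.0614, on chromosome 19. Its chromosomes 1 and 18 were at 2.06 and 2.00, so nuclei 6 and 10 matched different 2N karyotypes. Nucleus 9 matched 2 nuclei of the 2N gate, the nearest at 0.206, and 4 nuclei of the 2N+ gate. It had chromosome 3 at 3.90, chromosome 15 at 3.01 and chromosome 16 at 3.04. The match covers autosomes only. Chromosomes X and Y were at 2.06 and 0.0087 in nucleus 9, against 1.08 and 1.05 in 2N nucleus 16, its nearest. In 2N nucleus 8, its other 2N match, they were at 1.90 and 0.790. At a tolerance of 0.20, 2 of 12 4N nuclei and 24 of 47 2N nuclei matched. Nucleus 9 was the member just inside the tolerance, and nucleus 1, at 0.358, was the one just outside it.

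Nucleus 7 matched no 2N nucleus, at a largest difference of 0.587 on chromosome 3, but it matched 3 nuclei of the 2N+ gate, the nearest at 0.166. With both gates as the set to match, 4 of 12 4N nuclei and 28 of 47 2N nuclei had a match. Nuclei 8 and 11 had no match in either gate, with largest differences to a 2N nucleus of 0.694 and 0.780. Nucleus 8 had chromosome 5 at 2.74, chromosome 14 at 2.71 and chromosome 3 at 3.78. Nucleus 11 had chromosome 19 at 3.78 and chromosome 3 at 3.85, and its chromosome 18 was at 2.02. Whether a match of whole chromosomes extends to their parts was not settled. When every region had to lie within the tolerance, 0 of 12 4N nuclei and 2 of 47 2N nuclei had a match. The regions include the start of chromosome 5, at 6.29 to 14.2 in 2N nuclei (SD 1.62), where the same tolerance is strict. The count therefore cannot tell differing parts from a tolerance too strict for such regions.

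**Figure D1:**
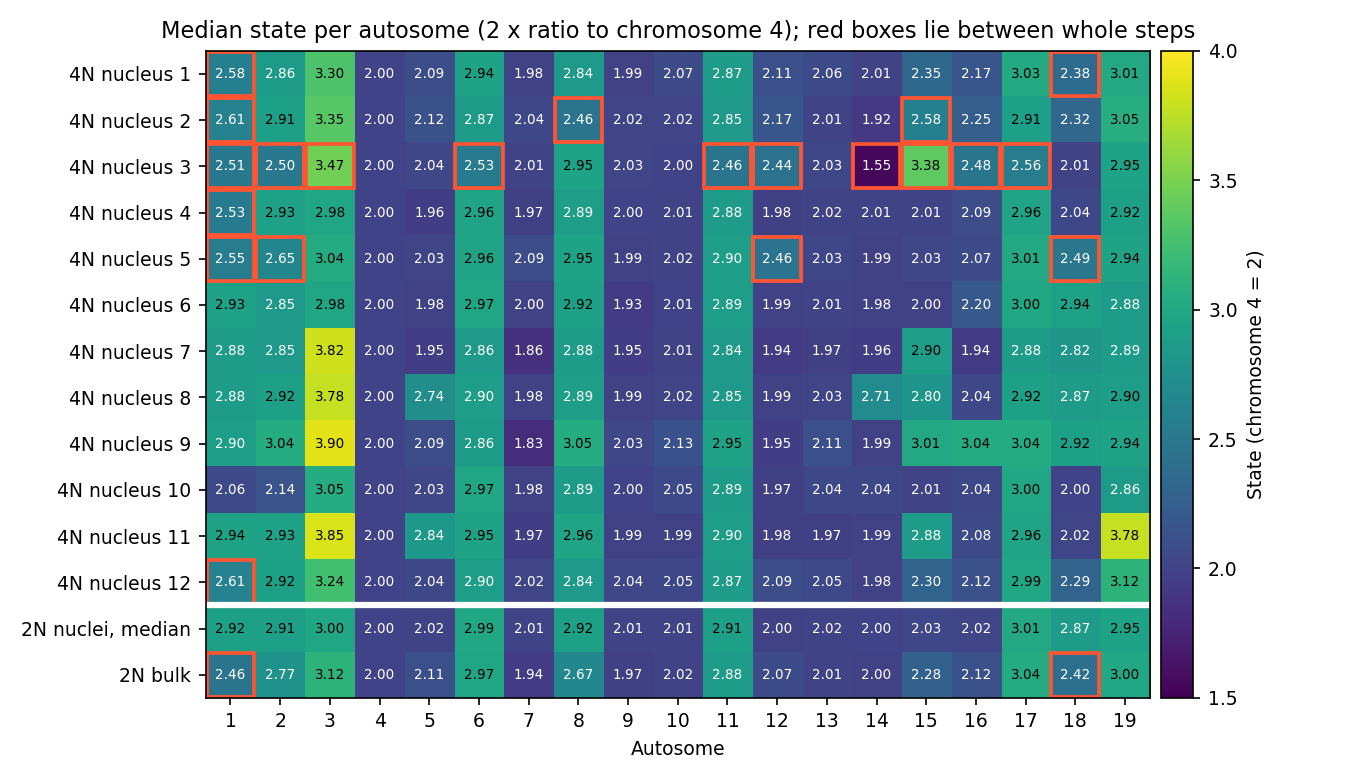
Median state of each autosome (columns) in each 4N nucleus, with the median over 2N nuclei and the 2N bulk library in the lowest lines. Colour and printed number give the state with chromosome 4 at 2, and red boxes mark states within 0.15 of the middle between whole numbers. Nucleus 3 has 10 boxes and nuclei 6 to 11 have 0.

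The next question was which 4N nuclei hold states between whole steps. An autosome was called between steps within 0.15 of the middle between whole numbers, and on a step within 0.15 of a whole number. At least 1 autosome lay between steps in 6 of 12 4N nuclei (50%, interval 21.1 to 78.9%) and in 3 of 47 2N nuclei (6.38%, interval 1.34 to 17.5%). At least 2 lay there in 4 of 12 4N nuclei and in 0 of 47 2N nuclei. In the 2N+ gate, 4 of 35 nuclei had at least 1 (11.4%, interval 3.20 to 26.7%) and 1 had at least 2. Where a count is 0, the exact interval reaches up to 26.5% for the 4N gate. The limit is 7.55% in the 2N gate and 10.0% for 2N+. For at least 1 autosome, the 4N interval does not overlap that of the 2N gate but overlaps that of the 2N+ gate. At a tolerance of 0.20 the counts were 6 of 12 4N and 5 of 47 2N nuclei, and no interval was computed there. No 4N nucleus with an autosome between steps matched a 2N nucleus, and the same held for 2N nuclei (0 of 47), while 1 of 35 2N+ nuclei had both. In the 6 4N nuclei chromosome 1 lay between steps, where no 2N nucleus had it. The 2 rules are thus not independent, and no conclusion is drawn from this count. Without nuclei 1, 2 and 12, whose profiles lay close to the 2N bulk library as described further on, 3 of the remaining 4N nuclei had at least 1 autosome between steps and 2 had at least 2.

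Nucleus 3 had the most, with 10 autosomes between steps. Its chromosome 1 was at 2.51, chromosome 2 at 2.50 and chromosome 16 at 2.48. Chromosomes 6, 11 and 17 were at 2.53, 2.46 and 2.56 in nucleus 3, against medians of 2.99, 2.91 and 3.01 over 2N nuclei. These 3 chromosomes lay near 3 in every other 4N nucleus, from 2.84 to 3.04. Chromosome 12 was at 2.44, and chromosome 14 was at 1.55, the lowest autosomal state of any 4N nucleus. Chromosomes 3 and 15 lay above 3 in nucleus 3, at 3.47 and 3.38.

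Nucleus 5 had 4 autosomes between steps, namely chromosome 1 at 2.55, chromosome 2 at 2.65, chromosome 12 at 2.46 and chromosome 18 at 2.49. Chromosome 2 of nucleus 5 was just inside the class, and chromosome 15 of nucleus 1, at 2.35, was just outside it. Chromosome 12 lay between steps in nuclei 3 and 5 and in 0 of 47 2N nuclei. Nucleus 4 had chromosome 1 alone between steps, at 2.53, with its other autosomes from 1.96 to 2.98.

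Nuclei 1, 2 and 12 shared a pattern. Nucleus 2 had chromosomes 1, 8 and 15 between steps, at 2.61, 2.46 and 2.58. Nucleus 1 had chromosomes 1 and 18, at 2.58 and 2.38, and nucleus 12 had chromosome 1, at 2.61. Chromosome 3 was at 3.30, 3.35 and 3.24 in nuclei 1, 2 and 12, which is neither on a step nor between steps.

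Chromosome 1 was the autosome most often between steps. It lay there in nuclei 1, 2, 3, 4, 5 and 12, from 2.51 to 2.61, and in 0 of 47 2N nuclei, as in 0 of 35 2N+ nuclei. Of the other 4N nuclei, 5 had chromosome 1 near 3, from 2.88 to 2.94, and nucleus 10 had it at 2.06. These are medians of the whole chromosome. In nucleus 11 the part from 142995387 on (mm9) had a median of 3.81, and its last bin was at 2.10. Of the 47 2N nuclei, 28 had chromosome 1 within 0.15 of 3 and 16 within 0.15 of 2. The 2N nuclei with an autosome between steps were nuclei 7, 24 and 46, by chromosomes 17, 15 and 3.

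Bins gave the same order of nuclei. Bins between steps made up 51.3% of autosomal bins outside chromosome 4 in nucleus 3, 19.9% in nucleus 5, 15.3% in nucleus 2, 13.02% in nucleus 1, 10.4% in nucleus 12 and 7.12% in nucleus 4. In the other 6 nuclei the share was from 0.415 to 3.46%. The median share was 5.29% over 4N nuclei (SD 14.4) and 0.530% over 2N nuclei (SD 1.19, highest 5.51). The 4N median was 2.05% without nuclei 1, 2 and 12, and 10.4% without the nuclei with more than 60 breakpoints described further on. The 6 4N nuclei with an autosome between steps thus each lay above every 2N nucleus. The same did not hold against the 2N+ gate, where the median share was 0.691% (SD 3.796, highest 18.01). At least 7% of bins lay between steps in 4 of 35 2N+ nuclei, against 6 of 12 4N nuclei and 0 of 47 2N nuclei. Of the 4N nuclei, only nuclei 3 and 5 lay above every 2N+ nucleus. Bins on whole steps had a median of 71.9% over 4N nuclei (lowest 46.1, highest 92.6) and of 95% over 2N nuclei (lowest 36.97, highest 99.4). The ranges of the gates overlap for bins on steps. States spread evenly would put 30% of bins in each class.

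**Figure D2:**
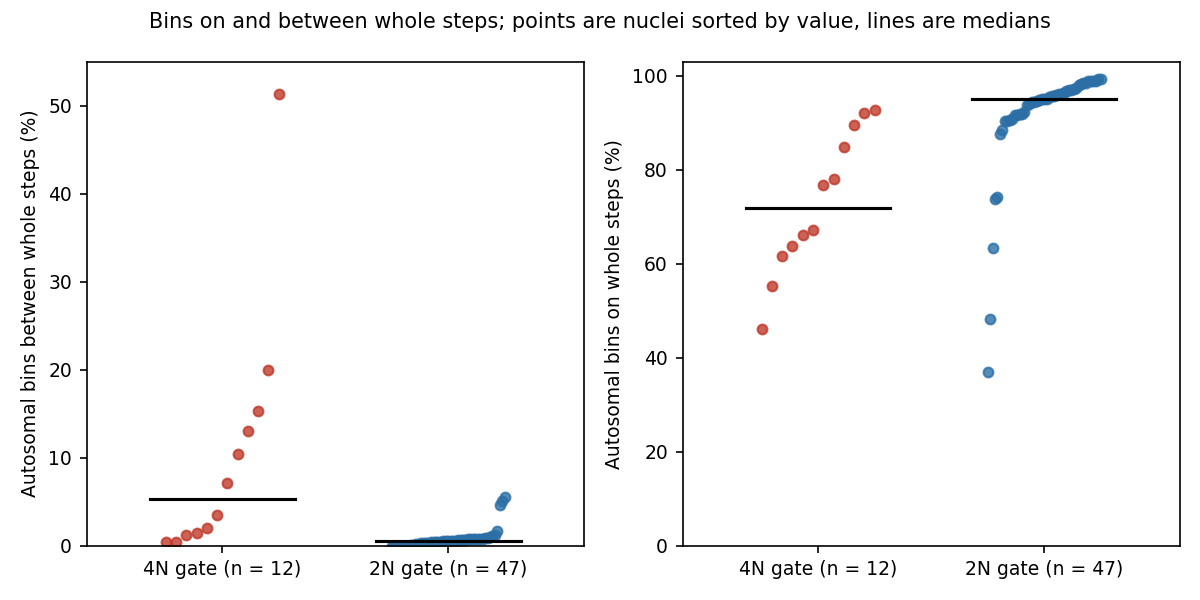
Percent of autosomal bins between whole steps (left) and on whole steps (right) in 4N and 2N nuclei. Points are nuclei sorted by value and lines are medians. Between steps, 6 4N nuclei lie above the highest 2N nucleus at 5.51%, and on steps the median is 71.9% over 4N nuclei, against 95% over 2N nuclei.

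A nucleus with 4 copies of chromosome 4 has whole copy numbers at steps finer than those seen with chromosome 4 at 2. The mean distance of bins to the nearest whole number was therefore compared with chromosome 4 put at 2 and at 4, where an even spread gives 0.25 for both. In nucleus 3 the distance was 0.0951 with chromosome 4 at 4 and 0.254 with it at 2. In nucleus 5 it was 0.0853 with chromosome 4 at 4 and 0.122 with it at 2. Nuclei 3 and 5 were the 4N nuclei closer to the finer scale, 2 of 12 (16.7%, interval 2.09 to 48.4%), against 0 of 47 2N nuclei and 0 of 35 2N+ nuclei. Whether the libraries of nuclei 3 and 5 each hold 1 doubled genome or the DNA of more than 1 nucleus was not tested. Nucleus 4 had close values, at 0.0845 with chromosome 4 at 4 and 0.0691 with it at 2. Nuclei 1, 2 and 12 lay from 0.196 to 0.208 with chromosome 4 at 4 and from 0.141 to 0.175 with it at 2, so neither scale brought them close to whole numbers.

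**Figure D3:**
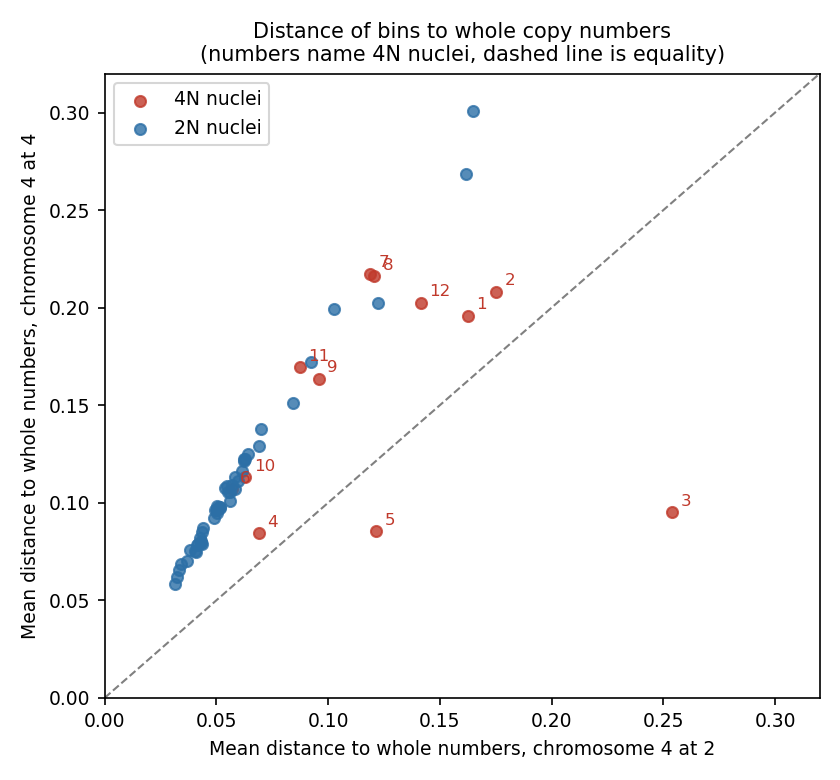
Mean distance of autosomal bins to the nearest whole copy number with chromosome 4 put at 2 (horizontal) and at 4 (vertical), in steps, for 4N and 2N nuclei. Nuclei 3 and 5 lie below the dashed line of equality, and every 2N nucleus lies above it.

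Nuclei 1, 2 and 12 were then set beside the 2N bulk library, a comparison chosen after the values were seen. The bulk library averages many nuclei and had chromosome 1 at 2.46 and chromosome 18 at 2.42. Nuclei 12 and 1 lay within 0.25 of the bulk in every autosome, with largest differences of 0.170 and 0.185, and nucleus 2 reached 0.299, on chromosome 15. Among 2N nuclei the largest difference to the bulk was at least 0.328 (nucleus 24), with a median of 0.725 and a highest value of 1.70, so 0 of 47 were within 0.25. None of the 35 2N+ nuclei was within it either. Nuclei 4 and 5 followed at 0.378 and 0.388, and the other 7 4N nuclei lay from 0.517 to 1.10.

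The sex chromosomes were compared in the same way. Chromosome X was at 1.24, 1.21 and 1.15 in nuclei 1, 2 and 12, against 1.17 in the bulk. Chromosome Y, with 3 bins, was at 0.165, 0.143 and 0.0542 in these nuclei, against 0.139 in the bulk, so nuclei 1 and 2 lay near the bulk and nucleus 12 below it. In the other 4N nuclei chromosome Y was at most 0.022, and chromosome X was from 1.04 to 1.07 except in nuclei 3 and 9, at 1.52 and 2.06. Single 2N nuclei held such values too, with chromosome Y at 0.140 in 2N nucleus 10 and at 0.0544 in 2N nucleus 7, whose chromosome X was at 1.15. Whether these 3 libraries, or any other library of the 4N gate, hold the DNA of more than 1 nucleus was not tested.

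**Figure D4:**
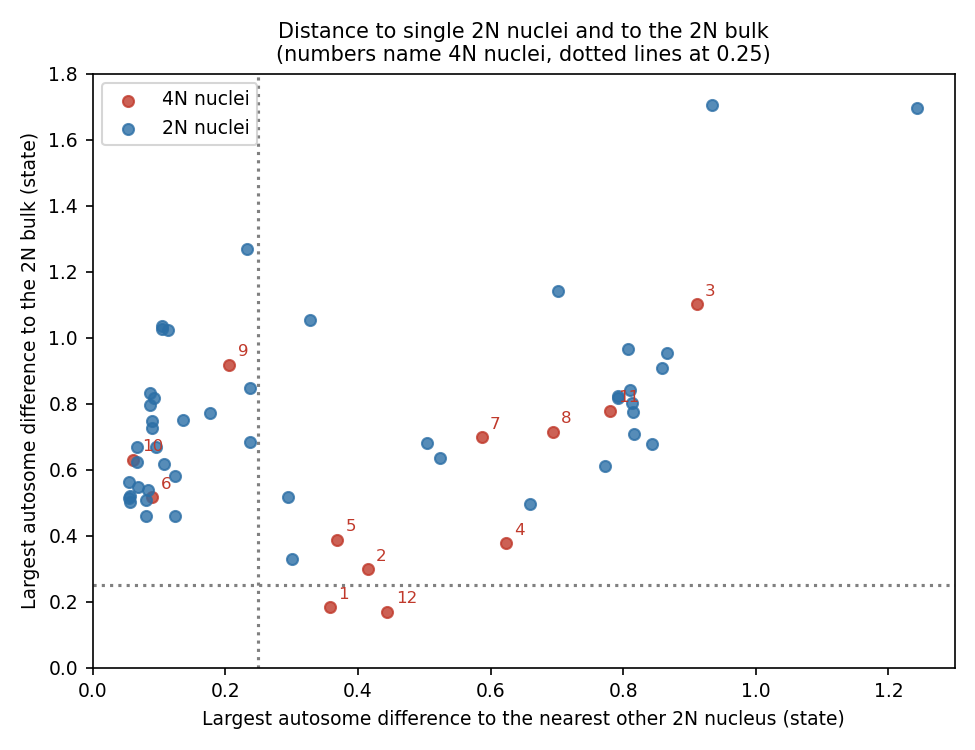
Largest autosome difference of each nucleus to the nearest other 2N nucleus (horizontal) and to the 2N bulk library (vertical), both in states, for 4N and 2N nuclei. Dotted lines mark 0.25. Nuclei 6, 9 and 10 lie left of the vertical line with 27 2N nuclei, and nuclei 1 and 12 alone lie under the horizontal line.

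Medians of the gates were compared for each autosome. They lay at least 0.25 apart for 4 of 18 autosomes (22.2%), 2 higher and 2 lower in the 4N gate. Chromosome 18 had a median of 2.35 over 4N nuclei (SD 0.376, lowest 2.00, highest 2.94) and of 2.87 over 2N nuclei (SD 0.425, lowest 1.99, highest 2.999). Chromosome 1 had a median of 2.61 over 4N nuclei and of 2.92 over 2N nuclei, a difference of -0.31 that was -0.04 without nuclei 1, 2 and 12. The difference for chromosome 18 was -0.52, and -0.37 without these nuclei. For chromosome 1 the difference is smaller than the SD of 2N nuclei, 0.436, and for chromosome 18 it is larger than theirs with all nuclei but smaller without nuclei 1, 2 and 12. The ranges overlap.

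Chromosome 15 had a median of 2.46 over 4N nuclei (SD 0.472, lowest 2.00, highest 3.38) and of 2.03 over 2N nuclei (SD 0.394, lowest 1.98, highest 3.18). The difference of 0.43 was 0.77 without nuclei 1, 2 and 12. Chromosome 15 was nearest 2 in 6 and nearest 3 in 6 4N nuclei, against 35 and 12 2N nuclei, so its 4N median lies between these classes. Chromosome 3 had a median of 3.33 over 4N nuclei (SD 0.360, lowest 2.98, highest 3.90) and of 2.999 over 2N nuclei (SD 0.286, lowest 2.93, highest 3.97), and the ranges overlap. Nuclei 7, 8, 9 and 11 had chromosome 3 from 3.78 to 3.90 and chromosome 15 from 2.80 to 3.01. Differences of the other autosomes were small, at 0.09 for chromosome 16, -0.07 for chromosome 6 and -0.03 for chromosomes 8 and 11.

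Parts of chromosomes followed. Borders were placed where at least 6 of the 59 nuclei of both gates had a step, which gave 46 regions outside chromosome 4, and 11 of them (23.9%) had medians at least 0.25 apart. Coordinates are in mm9. The first 2 bins of chromosome 8, up to 4163998, had a median of 2.74 over 4N nuclei and of 2.08 over 2N nuclei, the widest gap of any region at 0.67. The stretch after it, from 4163999 to 43640395, had a median of 2.38 over 4N nuclei and of 2.04 over 2N nuclei. The first 2 bins were nearest 2 in 5 and nearest 3 in 7 4N nuclei, against 34 and 13 2N nuclei. For the stretch after them the counts were 7 and 5, against 36 and 11. Further along, from 99101960 to 105672648, the median was 2.49 over 4N nuclei (lowest 1.19, highest 2.93) and 2.91 over 2N nuclei (lowest 1.96, highest 3.81). The 5 bins before that, from 96636504 to 99101959, had medians of 2.49 over 4N nuclei and 2.85 over 2N nuclei.

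Some regions lay between steps in both gates. On chromosome 8 from 90587202 to 94288107, 6 of 12 4N nuclei and 20 of 47 2N nuclei lay between steps. From 94288108 to 96636503, 5 of 12 4N nuclei were in that class, against 19 of 47 2N nuclei. These stretches hold 8 and 5 bins. On chromosome 16 from 69797011 to 80175640, 5 of 12 4N nuclei lay between steps and 0 of 47 2N nuclei did, with medians of 2.54 over 4N nuclei and 2.80 over 2N nuclei. In the next stretch, from 80175641 to 84241392, it was 4 of 12 4N nuclei and 0 of 47 2N nuclei. On chromosome 8 from 99101960 to 105672648 it was 4 of 12 4N nuclei and 1 of 47 2N nuclei.

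Within the 4N gate, chromosomes 8 and 11 had breaks that went together, a pairing chosen after the values were seen. In nuclei 3, 7, 8 and 11 the end of chromosome 8 lay at least 0.5 below its middle and the end of chromosome 11 at least 0.5 above its middle. Both held in 4 of 12 4N nuclei (33.3%, interval 9.92 to 65.1%), in 6 of 47 2N nuclei (12.8%, interval 4.83 to 25.7%) and in 3 of 35 2N+ nuclei. In the 4N and 2N gates no nucleus had 1 of these without the other, but 2N+ nuclei 16, 17 and 32 had the step on chromosome 8 without that on chromosome 11. The end of chromosome 8, from 105672649 on, was at 2.05, 1.99, 2.19 and 2.12 in nuclei 3, 7, 8 and 11. The end of chromosome 11 was at 3.35, 3.65, 3.68 and 3.69 in the same nuclei.

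The starts of chromosomes 1 and 5 carry raised segments. The start of chromosome 1, from 3559438 to 15332557, was at 5.85 in nucleus 10, 4.81 in nucleus 5, 3.41 in nucleus 1 and 3.15 in nucleus 12, and stood at least 0.5 above the next region in these 4 of 12 4N nuclei and in 13 of 47 2N nuclei. In the other 4N nuclei it was from 2.59 to 2.94. The start of chromosome 5, up to 5715257, was from 7.13 to 11.9 in 11 4N nuclei, and from 6.29 to 14.2 in 2N nuclei. In nucleus 7 it was at 2.45, below every 2N nucleus. The inner part of chromosome 2, from 24832583 to 76208370, was from 1.91 to 2.25 in nuclei 1, 2, 4, 5, 6, 8, 10 and 12, and near 3 in nuclei 3, 7, 9 and 11, from 2.80 to 3.08. Both classes occurred in the 2N gate, with 40 of 47 nuclei nearest 2 and 6 nearest 3. The median of this part was 1.97 over 2N nuclei and 2.81 over 2N+ nuclei.

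**Figure D5:**
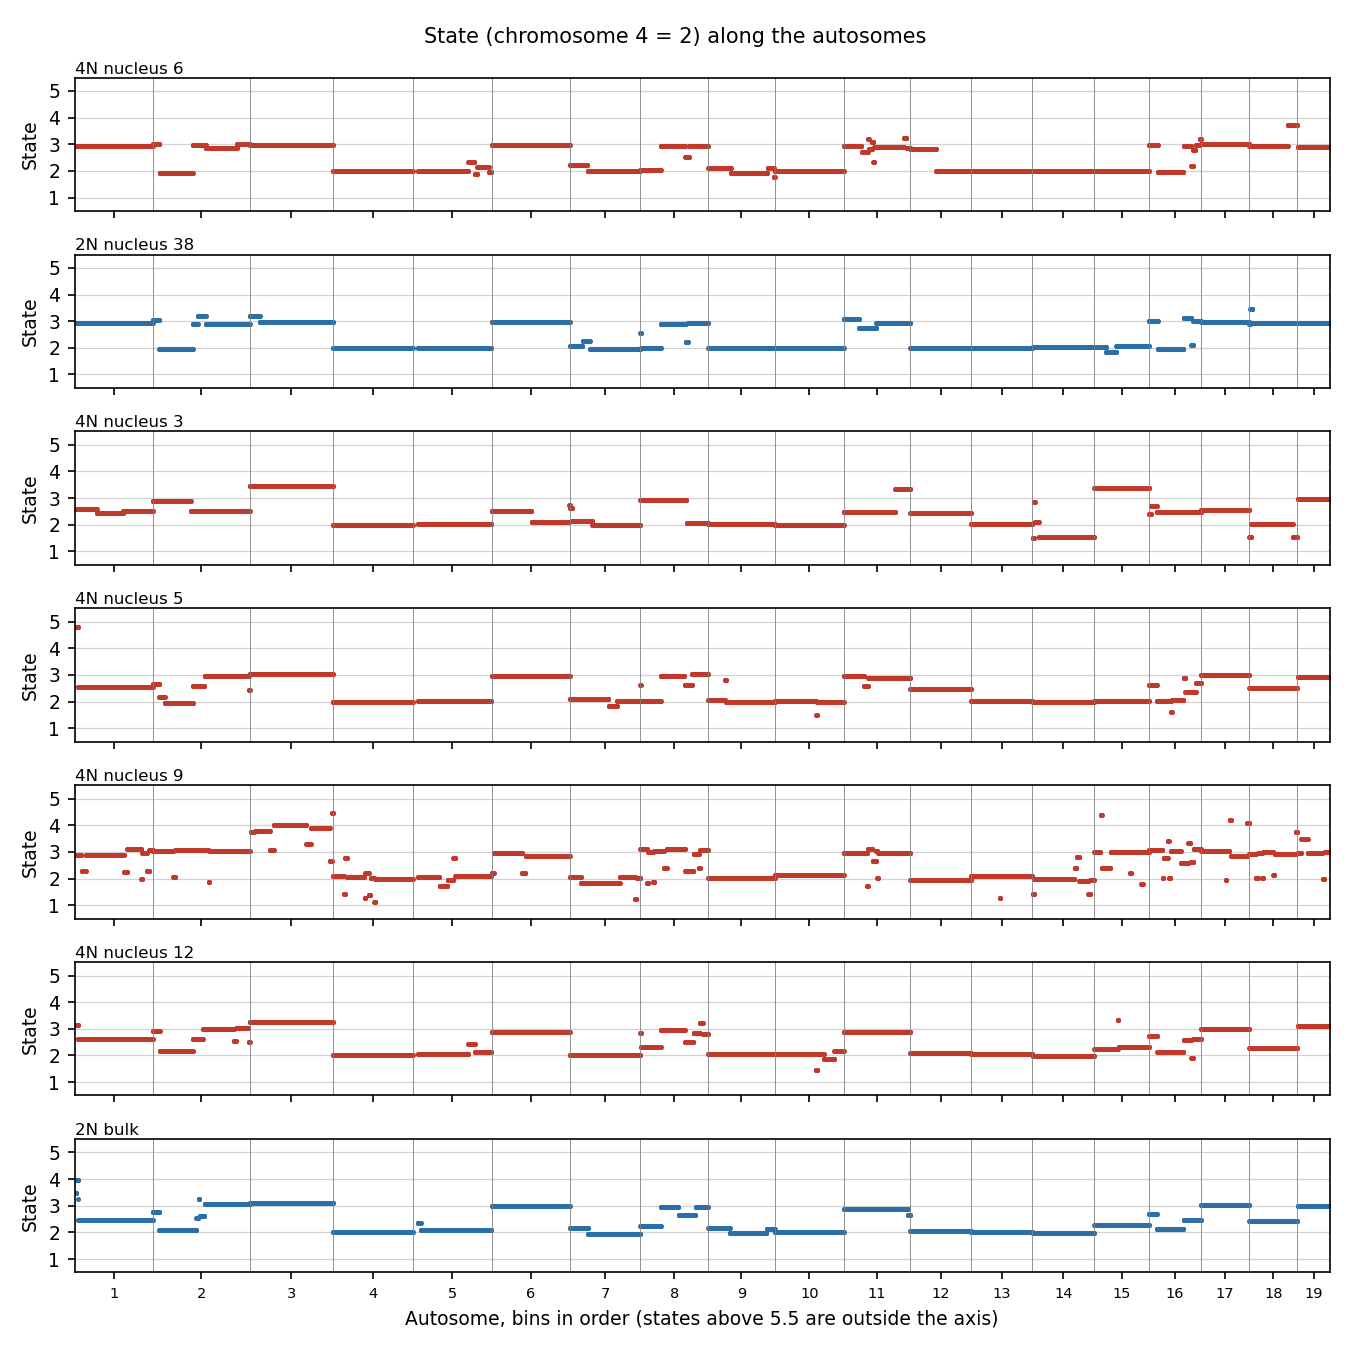
State along the autosomes for 4N nuclei 6, 3, 5, 9 and 12, 2N nucleus 38 and the 2N bulk library, with bins in genome order and chromosome 4 at 2. Nucleus 6 is drawn above its nearest 2N nucleus, 38, nuclei 3 and 5 show levels between whole numbers, nucleus 9 has many short low segments, and nucleus 12 is drawn above the bulk library.

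Nuclei 7, 9 and 10 differed from the rest in their number of breakpoints, which was 64, 98 and 75 on the autosomes. The other 4N nuclei had 10 to 33, and the 47 2N nuclei had 5 to 34 with a median of 18. Of the 35 2N+ nuclei, 3 had more than 60. Segments of at most 6 bins that lay at least 0.5 below their chromosome numbered 23 in nucleus 7, 21 in nucleus 9 and 15 in nucleus 10, against at most 2 in any 2N nucleus. In the 2N+ gate, nuclei 22 and 24 had 11 and 8 of them. They covered 91, 90 and 55 bins. None of these bins was short and low in any 2N nucleus, in which 54 bins (1.16% of autosomal bins) were so in at least 1 nucleus. Of the bins of nuclei 7, 9 and 10, 4 of 91, 11 of 90 and 5 of 55 were also short and low in a 2N+ nucleus, as were 147 autosomal bins in all (3.17%). The median level of these bins was 0.596, 0.680 and 0.643 of their chromosome. The short low segments of these nuclei overlapped in part, from 3 of 21 segments of nucleus 9 with those of nucleus 10 (14.3%) to 6 of 15 segments of nucleus 10 with those of nucleus 7 (40%). The segments of each nucleus cover from 1.19 to 1.96% of autosomal bins. That share counts bins, and a segment of several bins can meet another more easily than a single bin can. It is therefore not the share of overlapping segments to be had without any relation, which was not computed. Nuclei 9 and 10 are 2 of the 3 nuclei that matched a 2N nucleus, and without the nuclei with more than 60 breakpoints 1 4N nucleus matched. Read depth and DNA quality of these libraries were not measured here, and their part in the breakpoints was not tested.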

How the data were processed

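Whole-genome libraries of single nuclei were sequenced, and the submitters' processing notes name Bowtie 1.0, a read aligner, and the genome build mm9. How bins, GC correction, duplicates and segments were made is not given in the sources used here. Values were deposited as linear ratios, not as counts; they are equal over long runs of bins and near 1 on average in each library, so no depth or bin noise could be had and changes shorter than a segment are hidden. Titles gave the gate of each library. States are 2 times the ratio to the chromosome 4 median, and the rules for matching, steps, grids and regions are given with the results. The nuclei, rules and lists were chosen with earlier results of these data known. All 12 4N nuclei are named. Autosomes named are those between steps in any 4N nucleus and the 8 with the largest differences of medians, and regions are chosen likewise from differences and from counts between steps, plus the starts of chromosomes 1, 5 and 8, the middle of 16 and the inner part of 2. Chromosome 5 of nucleus 8 and chromosome 19 of nucleus 11 fall outside this rule and were picked for their values. The measures were tested on simulated nuclei. With almost no noise, states between steps, grids and matches were all recovered. As noise between chromosomes grew, part of the simulated states between steps were missed, some whole states were called between steps and grids were often wrong, largely through noise in chromosome 4, which sets the scale. Real nuclei may be misclassed in the same way. Alternatives were other denominators, tolerances, sets to match, filters on bins and borders. The bulk comparison, the joint breaks, the short segments and the settings that leave nuclei out were added after seeing the data. Scripts ran in Python 3.11.15 with pandas 2.3.3, numpy 2.4.6, matplotlib 3.10.9 and scipy 1.17.1.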

Additional observations from a re-analysis of the deposited data

How the results depend on the processing

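Over 23 alternatives, 116 values of 20 results were recomputed, of which 104 stayed within 1 SD of the nuclei or, for counts, within 1.5 times, 12 moved further and 0 changed sign. Of the 104, some still moved by over 1.5 times. The median share of bins between steps was 1.88% in 4N and 0.323% in 2N nuclei at a tolerance of 0.10, and in 4N nuclei 2.05% without nuclei 1, 2 and 12 and 10.4% without the nuclei with more than 60 breakpoints. The difference of chromosome 15 was 0.77 without nuclei 1, 2 and 12. With chromosomes 4, 7, 9, 10 and 13 as denominator, 1 2N nucleus had at least 2 autosomes between steps. At a tolerance of 0.10, the median share of bins on steps was 52.9% in 4N nuclei, and 1 2N nucleus had at least 1 autosome between steps, which was 5 at a tolerance of 0.20. A match over regions held for 0 4N and 2 2N nuclei, and a match to 2N+ nuclei held for 4 2N nuclei. With borders in at least 12 nuclei, 6 regions had medians apart. In settings added after seeing the data, without 4N nuclei 1, 2 and 12, 3 4N nuclei had at least 1 autosome between steps and 2 had at least 2, and the difference of medians of chromosome 1 was -0.04. Without the nuclei with more than 60 breakpoints, 1 4N nucleus matched a 2N nucleus. The cause of these moves was not tested. No paired analysis was possible because nucleus numbers pair nothing across gates and nothing was fitted. The 12 nuclei of 1 culture and the unknown depth limit the precision of each share.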
